A study of Homo sapiens with 9 samples.

Results

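The 38 genes described here lie at about 160 to 180 Mb of chromosome 3, in and next to the band 3q26, and were listed because, as a stretch, they were lower in p53 KO cells. They were chosen on these measured counts, so their difference between p53 KO cells and the controls is given as a description, with no p-values. Where members are counted as called lower or higher in p53 KO cells, the count says only how many of the chosen genes passed the threshold and is no evidence for the difference. By symbol, 38 of 38 were found among the 58051 genes of the count table, 37 had a count in at least 1 library and 35 passed the filter on low counts that left 14513 genes. The same window held 241 genes of the table, of which 48 passed the filter and 13 of those were not listed. A431 is an epidermoid carcinoma cell line that carries mutant p53. RNA of A431 parental cells (mutant p53), of A431 Ctrl cells (mutant p53, with an empty vector CRISPR construct) and of A431 p53 KO cells (a CRISPR construct against p53) was sequenced in 3 poly(A) libraries per group. The labels say that cells were grown from single colonies and harvested 48 h after settling, so each edited line may be 1 clone, and a trait of a clone and the loss of p53 cannot be told apart. The labels do not say that the 3 libraries of a group came from separate cultures, so p-values measure the spread between these libraries, which may be technical.

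Genes of 3q26 are known as a group from squamous carcinomas, where this part of the long arm is often gained. Several of its genes act in growth signalling or in the nucleus, among them PIK3CA, the catalytic subunit alpha of phosphoinositide 3-kinase, PRKCI, an atypical protein kinase C of cell polarity, ECT2, which acts in cytokinesis, and MECOM, a zinc finger transcription factor. Neighbours on a chromosome need share neither a promoter nor a function, and the list also holds subunits of the mitochondrial ribosome, of condensin and of the protein translocon of the endoplasmic reticulum.

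Library totals ranged from 19783778 to 29840452 counts on genes, and levels are given as CPM, the share of a library's counts, as counts per 1000000, with library sizes scaled by edgeR's TMM method. Limits from a count of 0 cover counting error only, and standard errors include the spread between libraries. Among markers of an epidermoid line, EGFR, KRT5, KRT6A, KRT17, CDH1 and TP63 were present in every library, whereas KRT14 had at most 13 counts. Of the markers of other cells, PTPRC, CD3E and HBB had 0 counts, PDGFRB at most 4 and CDH5 at most 9, PECAM1 at most 13, and COL1A1 47 to 114. Since KRT14 is a usual keratinocyte marker, its near absence goes against part of the marker list.

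Long genes were low in 2 libraries, Ctrl replicate 1 and p53 KO replicate 3. Over 8077 genes, the deviation of a library from its group mean had a Pearson correlation with log2 exon length of -0.55 in Ctrl replicate 1 and -0.51 in p53 KO replicate 3, and of -0.33 to 0.53 in the other 7 libraries, across genes, which are not independent. This touches the members, whose median exon length was 7.82 kb (1.29 to 17.2 kb) against 4.84 kb over all tested genes with a length. Of 35 members, 26 had their lowest Ctrl value in Ctrl replicate 1 and 22 their lowest p53 KO value in p53 KO replicate 3. Counts are therefore also given without these 2 libraries.

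**Figure D1:**
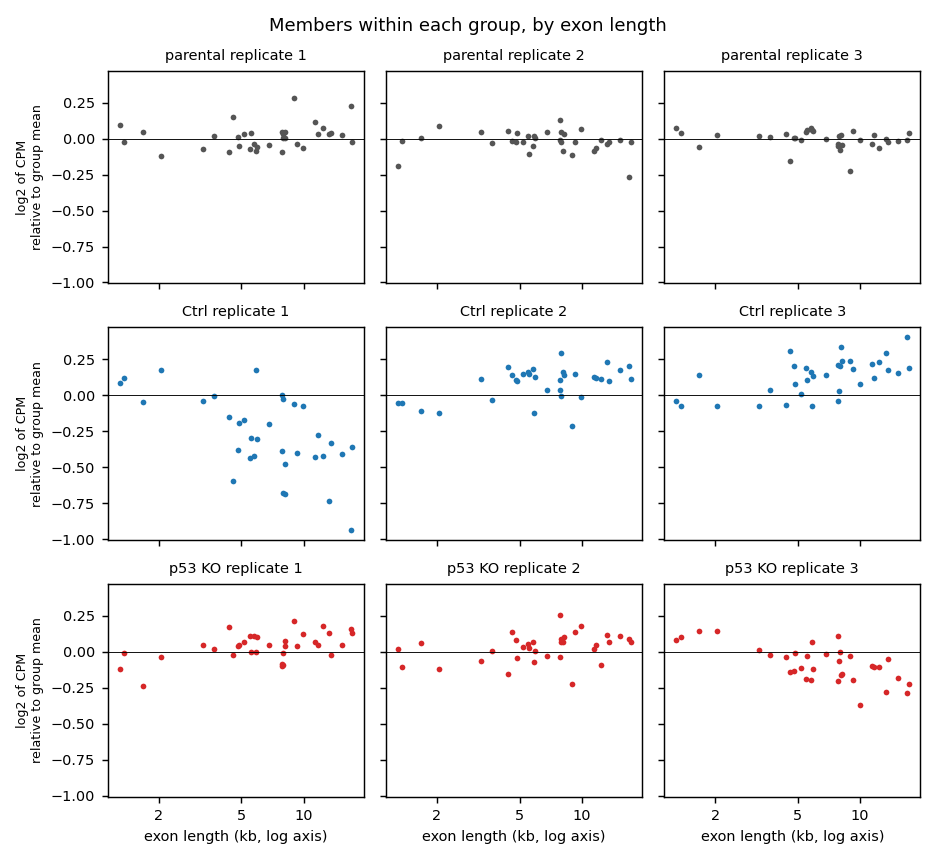
Each panel is 1 library and each point 1 of 34 tested members (NAALADL2, with libraries at 0, is not drawn), with exon length in kb on a log axis and log2 of CPM relative to the mean of its own group on the vertical axis. Longer members sit below 0 in Ctrl replicate 1 and, less far, in p53 KO replicate 3.

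Most members were lower in p53 KO cells. Their median log2 change was -0.46 against parental cells, a level of 72.5%, and -0.44 against Ctrl cells, a level of 73.5%, whereas the median over all tested genes was 0.01 in both. Fitted changes were below 0 for 31 of 35 members against parental and for 30 of 35 against Ctrl cells. At an adjusted p of at most 0.05 in edgeR's quasi-likelihood test over all genes, 20 members were lower and 1 was higher against parental cells, where 8.36% of all tested genes were lower and 9.77% higher. Against Ctrl cells 21 were lower and 2 higher, where 14.2% of all genes were lower and 15% higher. Both comparisons use the same p53 KO libraries. Changes were mostly small. Against parental cells the lowest log2 change of a member was -1.24, and 0.717% of all genes were called beyond -1.5. Against Ctrl cells 1 member, NAALADL2, was beyond -1.5 (1.11% of all genes), but it was admitted by the filter only through its Ctrl libraries, so that difference followed from the filter.

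In 16 of 35 members all 3 p53 KO libraries lay below all 6 control libraries, and in 1, ARL14, above them. Over all tested genes, 10.1% lay below and 11.9% above. The remaining 18 members overlapped. Without Ctrl replicate 1, 26 members lay below, and without both libraries low in long genes 28. The count called lower against parental cells was 28 without these 2 libraries, with a median of -0.38, and against Ctrl cells 26, with a median of -0.51. No share over all tested genes is given with libraries left out, so these counts are not set beside one. Fewer libraries make it easier for any gene to show no overlap. The count against parental cells, 20 with all libraries, was 13, 12 and 12 without parental replicate 1, 2 or 3, 13 without p53 KO replicate 1 and 11 without p53 KO replicate 3. Members together took 0.392% to 0.395% of all counts in parental libraries, 0.306% to 0.428% in Ctrl libraries and 0.262% to 0.296% in p53 KO libraries, so that Ctrl replicate 1 lay nearest to the p53 KO range. A lower share of this kind is relative to all other RNA, and fewer cells and less RNA per cell cannot be told apart in bulk samples.

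**Figure D2:**
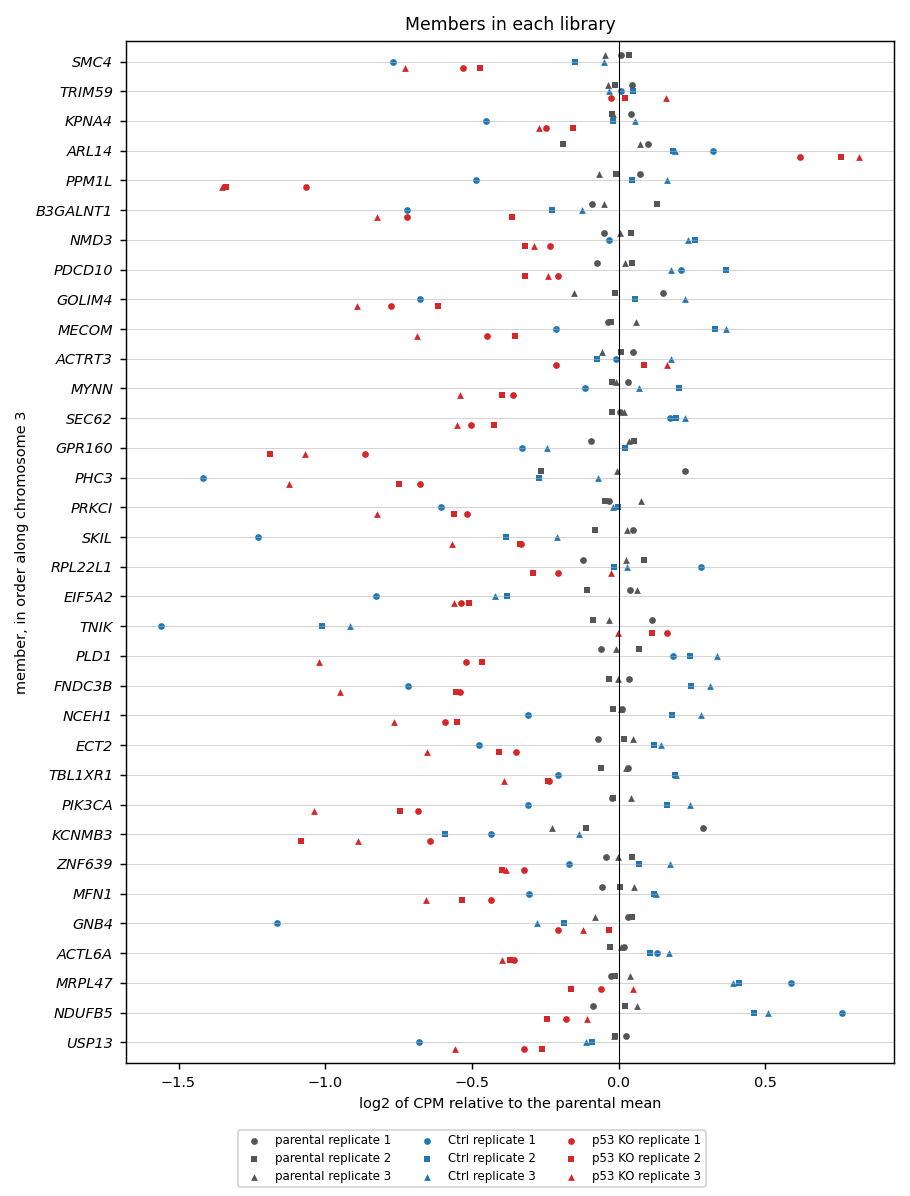
Rows are 34 tested members in order along chromosome 3 (NAALADL2, with libraries at 0, is not drawn), and the horizontal axis is log2 of CPM relative to the parental mean, with 1 point per library, grey for parental, blue for Ctrl and red for p53 KO. Red points lie left of the grey ones in most rows, ARL14 is the row with red points on the right, and the blue circle of Ctrl replicate 1 often lies among the red points.

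Of 11 tested members in signalling, 8 were called lower and 1 higher against parental cells, and 7 lower and 2 higher against Ctrl cells. Over all tested genes 8.36% were lower and 9.77% higher against parental, and 14.2% lower and 15% higher against Ctrl cells. Counts by role describe genes chosen as lower and are no result about a role. PIK3CA, at chr3:179148114-179240093 on the plus strand (GRCh38, GENCODE release 44, as for all positions of genes), lay at 58.1, 58.1 and 60.7 CPM in parental, 47.6, 66.1 and 69.8 CPM in Ctrl and 36.7, 35.1 and 28.7 CPM in p53 KO libraries. Its 3 p53 KO values were below all 6 controls, with Ctrl replicate 1 the nearest. The log2 change was -0.81 ± 0.14 (SE, 3 libraries per group, as below) against parental and -0.87 ± 0.14 against Ctrl. PRKCI lay at 191, 189 and 206 CPM in parental, 128, 195 and 193 CPM in Ctrl and 137, 132 and 111 CPM in p53 KO libraries, where Ctrl replicate 1 overlapped the p53 KO values. Its log2 changes were -0.63 ± 0.14 against parental and -0.44 ± 0.14 against Ctrl. ECT2 had the same arrangement, at 324, 344 and 351 CPM in parental, 244, 369 and 376 CPM in Ctrl and 266, 256 and 216 CPM in p53 KO libraries. Its log2 changes were -0.46 ± 0.14 and -0.42 ± 0.14 in the same order.

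The lowest fitted change against parental cells among all 35 members was that of PPM1L, a membrane-bound phosphatase of the PP2C family. It lay at 8.80, 8.31 and 7.98 CPM in parental, 5.97, 8.64 and 9.38 CPM in Ctrl and 3.99, 3.31 and 3.27 CPM in p53 KO libraries, with no overlap between p53 KO and controls. The log2 change was -1.24 ± 0.17 against parental and -1.18 ± 0.17 against Ctrl. GPR160, an orphan receptor of the G protein-coupled family, lay at 12.2, 13.5 and 13.3 CPM in parental, 10.4, 13.2 and 11.0 CPM in Ctrl and 7.14, 5.70 and 6.20 CPM in p53 KO libraries. All p53 KO values were again lower than the controls, with differences of -1.03 ± 0.12 against parental and -0.86 ± 0.12 against Ctrl on the log2 scale. PLD1, a phospholipase that makes phosphatidic acid, lay at 19.1, 20.9 and 19.8 CPM in parental, 22.6, 23.6 and 25.2 CPM in Ctrl and 13.9, 14.4 and 9.82 CPM in p53 KO libraries. Its Ctrl libraries were all above its parental libraries and its p53 KO libraries all below them. Its log2 changes were -0.64 ± 0.13 against parental and -0.90 ± 0.13 against Ctrl. PDCD10, which binds kinases of the germinal centre family, had smaller log2 changes of -0.26 ± 0.08 and -0.51 ± 0.08, also without overlap. KCNMB3, an auxiliary subunit of a calcium-activated potassium channel, was low, at 4.48 to 6.39 CPM in parental, 3.48 to 4.77 CPM in Ctrl and 2.47 to 3.35 CPM in p53 KO libraries, with -0.86 against parental and -0.48 against Ctrl on the log2 scale. It shares 3403 bases with PIK3CA on the opposite strand, as NMD3 shares 716 with B3GALNT1 and ACTL6A 123 with MRPL47. The strand setting of the counting is not given in the sources used here, so reads of these overlaps cannot be told apart.

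ARL14, a small GTPase of the ARF family, went the other way. It lay at 4.93, 4.04 and 4.84 CPM in parental, 5.76, 5.23 and 5.26 CPM in Ctrl and 7.08, 7.80 and 8.14 CPM in p53 KO libraries, and each p53 KO library was above every control. The log2 change was 0.73 ± 0.12 against parental and 0.50 ± 0.11 against Ctrl. TNIK, a kinase of the germinal centre family that acts in WNT signalling, separated by another line. It lay at 19.2, 16.7 and 17.3 CPM in parental, 6.02, 8.82 and 9.42 CPM in Ctrl and 19.9, 19.2 and 17.7 CPM in p53 KO libraries, so that the Ctrl libraries were the low ones and p53 KO overlapped parental, with 0.10 against parental and 1.22 against Ctrl on the log2 scale. GNB4, a G protein beta subunit, stood at -0.12 against parental and 0.35 against Ctrl on the log2 scale. Its p53 KO libraries overlapped both controls, and its Ctrl libraries were all below its parental libraries.

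Of 10 tested members that act in or at the nucleus, 5 were called lower against each control. Over all tested genes the shares were 8.36% against parental and 14.2% against Ctrl cells. MECOM lay at 27.1, 27.3 and 28.9 CPM in parental, 23.9, 34.9 and 35.8 CPM in Ctrl and 20.3, 21.7 and 17.2 CPM in p53 KO libraries. Its p53 KO values were below the controls, with Ctrl replicate 1 below the other Ctrl libraries. The log2 changes were -0.49 ± 0.15 against parental and -0.68 ± 0.14 against Ctrl. ACTL6A, an actin-related subunit of the BAF chromatin remodelling complex, lay at 219.8, 212 and 218 CPM in parental, 237, 234 and 244 CPM in Ctrl and 169, 168 and 165 CPM in p53 KO libraries, without overlap. On the log2 scale it differed by -0.37 ± 0.06 and -0.51 ± 0.06. MYNN and ZNF639, zinc finger proteins, were also below all controls, with -0.43 against parental and -0.49 against Ctrl for MYNN and -0.37 against parental and -0.40 against Ctrl for ZNF639. TBL1XR1, a subunit of the NCoR corepressor complex, was below all controls too, at -0.29 against parental and -0.36 against Ctrl.

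SMC4, a core subunit of condensin, lay at 920.1, 939 and 886 CPM in parental, 537, 825 and 885 CPM in Ctrl and 634, 659.9 and 552 CPM in p53 KO libraries. The p53 KO values were below parental, and Ctrl replicate 1 was the lowest of the 9 libraries. Its log2 changes were -0.57 ± 0.15 against parental and -0.28 ± 0.15 against Ctrl. PHC3, a Polycomb protein of the PRC1 complex with an exon length of 16.9 kb, lay at 108, 76.8 and 91.9 CPM in parental, 34.5, 76.3 and 87.8 CPM in Ctrl and 57.7, 54.8 and 42.3 CPM in p53 KO libraries. Its Ctrl replicate 1 was the lowest of the 9 libraries, with -0.84 against parental and -0.36 against Ctrl on the log2 scale. SKIL, a repressor of TGF-beta signalling, stood at -0.41 against parental and 0.13 against Ctrl and KPNA4, an importin alpha, at -0.22 against parental and -0.10 against Ctrl. ACTRT3, an actin-related protein, lay near 0, at 0.01 against parental and -0.03 against Ctrl.

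Of 8 members of membranes and mitochondria, 5 were called lower against parental (8.36% of all tested genes) and 7 against Ctrl cells (14.2%). SEC62, part of the translocon of the endoplasmic reticulum, lay at 187, 184 and 189.5 CPM in parental, 211, 214 and 219 CPM in Ctrl and 132, 139 and 128 CPM in p53 KO libraries. Its groups were separate, with p53 KO lowest and Ctrl highest, and Ctrl replicate 1 did not stand apart here. The log2 changes were -0.49 ± 0.06 against parental and -0.69 ± 0.06 against Ctrl. NCEH1, a hydrolase of cholesterol esters, lay at 156, 153 and 156 CPM in parental, 125, 176 and 188 CPM in Ctrl and 103, 106 and 91.1 CPM in p53 KO libraries, with p53 KO below all controls. The log2 values were -0.63 ± 0.13 and -0.71 ± 0.13. MFN1, a GTPase of mitochondrial fusion, lay at 104, 108 and 112 CPM in parental, 87.4, 118 and 118 CPM in Ctrl and 80.1, 74.7 and 68.7 CPM in p53 KO libraries, also without overlap, with -0.54 against parental and -0.53 against Ctrl on the log2 scale. GOLIM4, a Golgi membrane protein, lay at 83.5, 74.6 and 67.7 CPM in parental, 47.1, 78.3 and 88.0 CPM in Ctrl and 44.0, 49.2 and 40.5 CPM in p53 KO libraries, where Ctrl replicate 1 overlapped p53 KO. The fitted differences were -0.76 ± 0.19 and -0.68 ± 0.19 on the log2 scale. FNDC3B, a membrane protein with fibronectin type III domains, stood at -0.67 against parental and -0.69 against Ctrl. B3GALNT1, a glycosyltransferase of globoside synthesis, stood at -0.62 against parental and -0.30 against Ctrl.

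Of 5 tested members in translation or ubiquitin transfer, 2 were called lower against parental (8.36% of all tested genes) and 1 against Ctrl cells (14.2%). NMD3, an export adaptor of the large ribosomal subunit, lay at 88.0, 93.8 and 91.3 CPM in parental, 89.0, 109 and 107 CPM in Ctrl and 77.5, 72.9 and 74.6 CPM in p53 KO libraries, below all controls in p53 KO, with log2 changes of -0.28 ± 0.09 and -0.44 ± 0.09. EIF5A2, a paralogue of the translation factor EIF5A, lay at 44.9, 40.7 and 45.7 CPM in parental, 24.7, 33.6 and 32.7 CPM in Ctrl and 30.2, 30.7 and 29.7 CPM in p53 KO libraries. Both Ctrl and p53 KO libraries were below parental, so that p53 KO and Ctrl overlapped, with -0.53 against parental and -0.01 against Ctrl on the log2 scale. TRIM59, a RING-type ubiquitin ligase, stood at 0.05 against parental and 0.04 against Ctrl with overlapping groups. Its gene shares 2510 bases with SMC4 on the opposite strand. RPL22L1, a paralogue of a ribosomal protein, stood at -0.17 against parental and -0.27 against Ctrl and USP13, a ubiquitin protease, at -0.37 against parental and -0.11 against Ctrl. How reads that match several copies were counted is not given for EIF5A2 and RPL22L1, which have paralogues of similar sequence.

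The other 4 members were at or near the limit of detection. LRRC34 had 0 counts in all 9 libraries, which allows at most 0.101 to 0.152 CPM per library at 3 counts. WDR49 had at most 3 counts and SERPINI1 1 to 9, and neither passed the filter. NAALADL2, a peptidase-like membrane protein, passed it through the Ctrl libraries, with 14 to 48 counts there, 0 to 7 in parental and 0 to 3 in p53 KO, so it says little about p53 KO against parental cells.

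Ctrl and parental cells both carry mutant p53 and were compared by the same test. The parental and the Ctrl libraries both entered the choice of the members, so adjusted p of members in this comparison are a description and no independent test. The members' median log2 change was 0.02 (0.00 over all tested genes), and 2 were lower and 5 higher, where 9.69% of all tested genes were lower and 10.6% higher. TNIK fell by 1.12 on the log2 scale (edgeR, SE 0.14, adjusted p = 0.00041) and EIF5A2 by 0.53 (SE 0.11, adjusted p = 0.00855), each lower in 3 of 3 Ctrl libraries. NAALADL2 is 1 of the 5 genes counted as higher, but it passed the filter only through its Ctrl libraries, so its call followed from the filter and no test is given for it. MRPL47, of the large subunit of the mitochondrial ribosome, rose from 74.9, 75.5 and 78.2 CPM to 114, 101 and 99.7 CPM, a log2 change of 0.46 ± 0.08 (adjusted p = 0.00293 in edgeR). NDUFB5, of respiratory complex I, rose from 67.1, 72.4 and 74.4 CPM to 121, 98.1 and 101 CPM, by 0.58 ± 0.09 (adjusted p = 0.00148 in edgeR).

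In the p53 KO libraries MRPL47 lay at 73.0, 68.1 and 78.9 CPM and NDUFB5 at 63.0, 60.2 and 66.1 CPM. MRPL47 thus overlapped parental, with log2 changes of -0.06 against parental and -0.52 against Ctrl, and NDUFB5 stood at -0.18 against parental and -0.76 against Ctrl. PDCD10 and SEC62 rose less in Ctrl cells, by 0.26 ± 0.07 (edgeR adjusted p = 0.0357) and 0.20 ± 0.06 (edgeR adjusted p = 0.0426). Both calls were lost when any parental or any p53 KO library or Ctrl replicate 2 was left out, with edgeR adjusted p of 0.0517 to 0.142 for PDCD10 and 0.053 to 0.152 for SEC62, and that of SEC62 also without Ctrl replicate 3 (0.0625). Of the 35 members, 12 changed in place of 7 without Ctrl replicate 1, and 17 without both libraries low in long genes. The share over all tested genes is not given for these fits, so the rise is not a result about the members.

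In 3 pairs of members the starts lie on opposite strands within 1000 bases of each other, at 715 bases for B3GALNT1 and NMD3, 304 for PDCD10 and SERPINI1 and 41 for MRPL47 and NDUFB5. Promoter windows of 250 bases before and 50 after a RefSeq start (GRCh38.p14) are shown for the latter pairs, whose annotated starts are the closest. PDCD10 and MRPL47 each have 2 windows in the table, of which the one nearer to the neighbouring gene's start is shown for PDCD10 and 1 of the overlapping windows for MRPL47. RefSeq starts can differ from the annotated starts behind the distances, and neither window of PDCD10 and SERPINI1 shown reaches the annotated start of SERPINI1. Each is written 5′ to 3′ on the gene's strand, with capitals at GGGCGG or CCAAT or their reverse complements, and NDUFB5 had no entry in that table.
PDCD10 chr3:167734843-167735142 (minus strand): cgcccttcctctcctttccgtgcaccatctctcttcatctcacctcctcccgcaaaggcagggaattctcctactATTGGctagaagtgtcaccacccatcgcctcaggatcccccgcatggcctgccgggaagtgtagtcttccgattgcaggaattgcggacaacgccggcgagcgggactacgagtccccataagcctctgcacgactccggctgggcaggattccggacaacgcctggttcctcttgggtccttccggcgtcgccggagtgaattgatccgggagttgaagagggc
SERPINI1 chr3:167735471-167735770 (plus strand): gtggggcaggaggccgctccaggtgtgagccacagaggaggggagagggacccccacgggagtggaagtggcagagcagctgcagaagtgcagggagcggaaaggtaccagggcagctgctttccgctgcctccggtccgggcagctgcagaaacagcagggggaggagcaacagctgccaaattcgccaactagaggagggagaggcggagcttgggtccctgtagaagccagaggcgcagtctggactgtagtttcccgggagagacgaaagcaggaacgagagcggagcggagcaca
MRPL47 chr3:179604589-179604888 (minus strand): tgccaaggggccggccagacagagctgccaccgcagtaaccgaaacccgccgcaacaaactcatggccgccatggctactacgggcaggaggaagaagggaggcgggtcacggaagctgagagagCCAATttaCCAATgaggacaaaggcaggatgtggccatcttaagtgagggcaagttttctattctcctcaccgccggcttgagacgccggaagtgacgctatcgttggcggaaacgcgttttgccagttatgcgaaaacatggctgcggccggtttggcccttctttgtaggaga
The MRPL47 window holds 2 CCAAT boxes and also spans the annotated start of NDUFB5 at 179604690. These genes differed in p53 KO cells by -0.52 and -0.76 against Ctrl but by -0.06 and -0.18 against parental on the log2 scale, and they differed by 0.46 and 0.58 in Ctrl against parental cells. The PDCD10 window shown holds 1 such box on the opposite strand, written ATTGG, the one not shown, at chr3:167734438-167734737, holds 2 GGGCGG matches and no CCAAT box, and the SERPINI1 window holds neither motif, with 29.7 to 32.2 CPM per kb of exon for PDCD10 and 0.0217 to 0.108 for SERPINI1 in parental libraries. Over 52 promoter windows of the 34 members with an entry, GGGCGG was in 33 (63.5%), CCAAT in 21 (40.4%) and TATAAA in 9 (17.3%), on either strand, against 45%, 34.6% and 11.5% of all 35116 windows in the table. These are matches of letters only.

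Per kb of exon, which allows genes to be compared, SMC4 had the highest mean of the members in every group, at 112 CPM per kb in parental cells, 91.7 in Ctrl cells and 75.4 in p53 KO cells. In Ctrl cells its range of 65.8 to 108 overlapped the 73.1 to 83.8 of MRPL47. ECT2, ACTL6A and MRPL47 followed in parental cells at 61.8, 59.1 and 55.8 CPM per kb, of which ECT2 and ACTL6A had overlapping parental ranges. In p53 KO cells MRPL47, at 53.7 CPM per kb, stood above ACTL6A and ECT2, at 45.6 and 44.8. PIK3CA stood much lower, at 3.43, 3.56 and 1.95 CPM per kb in the parental, Ctrl and p53 KO groups. Across the 9 libraries, MFN1 and NCEH1 followed the mean log2 CPM of the other members most closely (Pearson r of 0.99), and ECT2, FNDC3B, GOLIM4, PIK3CA and ZNF639 came next (0.97). These points share the library effect on long genes and the group difference on which the members were chosen, so a high r is no result about a member. ARL14 had an r of -0.87.

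Among the 13 tested genes of the window that were not listed, ZMAT3, a zinc finger gene known as a target of wild-type p53, lay at 23.9 to 28.8 CPM in parental, 18.6 to 30.7 CPM in Ctrl and 8.24 to 12.2 CPM in p53 KO libraries. All its p53 KO libraries were below the controls, with differences of -1.38 ± 0.19 against parental and -1.33 ± 0.19 against Ctrl on the log2 scale. TNFSF10, the death ligand TRAIL, lay at 4.98 to 5.46 CPM in parental, 11.2 to 16.0 CPM in Ctrl and 7.05 to 9.56 CPM in p53 KO libraries, with parental lowest and Ctrl highest. IFT80, of intraflagellar transport, stood at -0.48 and -0.66. The non-coding RNAs LINC01322, KCNMB2-AS1 and RP11-16N11.2 had at most 17, 58 and 16 counts in a library. Their p53 KO values lay below all 6 controls. In p53 KO libraries LINC01322 lay at 0.0335 to 0.0496 CPM and RP11-16N11.2 at 0.101 to 0.198 CPM. LINC01322 and RP11-16N11.2 passed the filter only through control libraries, which favoured their lack of overlap. The pseudogene LRRFIP1P1 stood at -0.96 and -0.62 and lies within KCNMB3. KRT8P12 stood at -0.30 and -0.66. The pseudogenes RPL23AP42, RP11-641D5.1, BRD7P2 and UBE2V1P2, and an unclassified transcript beside TNIK, ranged from -0.24 to 0.27 against parental cells.

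At the edges of the window, just outside its start, SCHIP1 stood at -0.27 against parental and -0.30 against Ctrl, and the cytokine subunit IL12A at -0.83 and -0.68. Just outside its end, TTC14 stood at -0.44 and -0.14, and FXR1, an RNA-binding protein related to the fragile X protein, at -0.35 and -0.38. All 4 genes had fitted values below 0 in both comparisons, but SCHIP1 and FXR1 were added after their values were seen. SCHIP1 was called in neither comparison and TTC14 only against parental cells.

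Genes outside the window, which the rule did not use, were lower as well. In the window of the same width before it, from 140 to 160 Mb, 30 of 72 tested genes were lower against parental cells in edgeR's test, and 45 lower and 2 higher against Ctrl cells. In the window after it, from 180 to 200 Mb, 49 of 116 were lower and 5 higher against parental, and 66 lower and 7 higher against Ctrl cells. Their median log2 changes were -0.38 and -0.44 before it and -0.35 and -0.49 after it. Of these 188 neighbouring genes, 79 were thus lower against parental cells (8.36% of all tested genes) and 111 against Ctrl cells (14.2%). Without Ctrl replicate 1, 119 were lower against parental cells, and no share over all tested genes is given for that fit.

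The stretch was longer than these windows. From 100 Mb to the end of the chromosome, a bound set after the values were seen, 374 tested genes lay outside the window, and 166 of them (44.4%) were lower and 8 higher against parental cells, with a median of -0.35. Against Ctrl cells 234 (62.6%) were lower and 17 higher, with a median of -0.49. All p53 KO libraries were below all controls in 188 of the 374 (50.3%). The windows of 20 Mb from 100 Mb on had medians of -0.45 to -0.34 against parental and -0.52 to -0.44 against Ctrl, and the one with the members stood at -0.45 and -0.48. Before 80 Mb, 18 of 362 genes (4.97%) were lower and 22 higher against parental cells, with a median of 0.01, and 35 (9.67%) lower and 39 higher against Ctrl cells, with a median of 0.02. Between 80 and 100 Mb 6 of 21 genes were lower against parental cells and 7 against Ctrl cells. The members were therefore part of a longer run of lower genes on the same arm, and no difference between members and the rest of that run was tested.

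In Ctrl against parental cells these 374 genes had a median of 0.15, with 104 higher and 20 (5.35%) lower. Over all tested genes 10.6% were higher and 9.69% lower. Among the 188 neighbouring genes, 51 changed, and 25, 25 and 29 did so without parental replicate 1, 2 or 3. No share over all tested genes is given for the fits with a library left out.

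**Figure D3:**
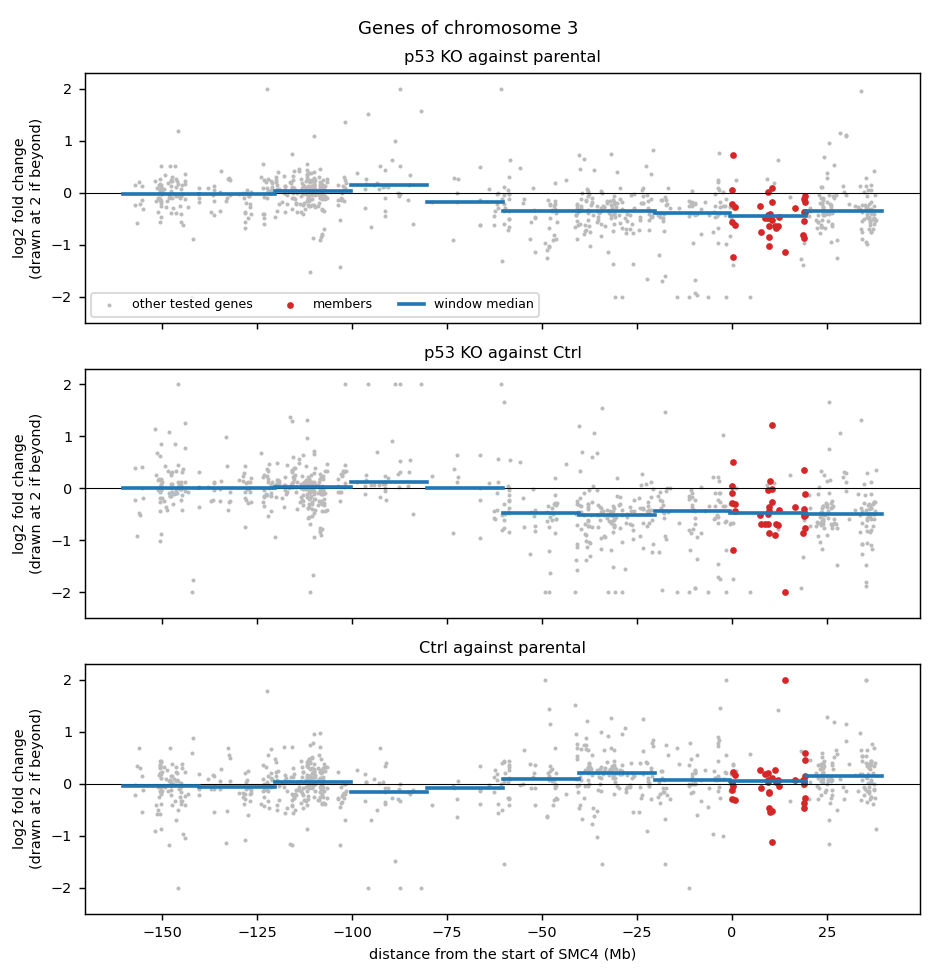
Each point is 1 of 805 tested genes of chromosome 3, placed by distance in Mb from the start of SMC4, with its log2 fold change on the vertical axis in the 3 comparisons (values beyond 2 are drawn at 2), members in red and the median of each window of 20 Mb as a blue line. From the window that starts about 60 Mb before the members to the end of the chromosome, the blue lines lie between -0.52 and -0.34 in both comparisons of p53 KO, and above 0 in Ctrl against parental.

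Partners and paralogues of the members that lie outside the window were compared in the same fit. Of 78 listed partners and paralogues of 21 members, 77 were tested, all but PIK3R2. In edgeR's test 12 were lower and 3 higher against parental cells, where 8.36% of all tested genes were lower and 9.77% higher. Against Ctrl cells 16 were lower and 7 higher, where 14.2% of all tested genes were lower and 15% higher. Against both controls 10 were lower and 1 was higher, where 5.25% of all tested genes were lower and 6.46% higher against both. The 1 higher gene, TBL1X, was admitted by the filter only through its p53 KO libraries. On chromosome 3 from 100 Mb on lie 6 of the partners, and 4 of the 6 were lower against both controls, with medians of -0.35 and -0.47. Of the 71 tested elsewhere, 6 were lower against both, with medians of -0.04 and -0.04. This split was made after the values were seen.

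PIK3CB, the beta paralogue of PIK3CA, lies on chromosome 3 before the window and was at 130.3 to 139.9 CPM in parental, 101 to 149.9 CPM in Ctrl and 75.7 to 88.1 CPM in p53 KO libraries. It fell in p53 KO cells, in 3 of 3 libraries (edgeR, -0.72 ± 0.13, adjusted p = 0.0033 against parental and -0.67 ± 0.13, adjusted p = 0.00267 against Ctrl). SEC61A1, the channel of the translocon that SEC62 serves, fell by 0.35 (edgeR adjusted p = 0.00306) and 0.51 (adjusted p = 0.000134) on the log2 scale, in the same order. LSG1, which releases NMD3 from the ribosomal subunit, fell by 0.36 and 0.44, and KPNA1, another importin alpha, by 0.36 and 0.31. The largest edgeR adjusted p of these 4 values was 0.0176.

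Off chromosome 3, PARD3, a scaffold that binds PRKCI at cell junctions, was at 69.3 to 71.4 CPM in parental, 67.9 to 72.2 CPM in Ctrl and 42.1 to 43.7 CPM in p53 KO libraries, and fell in p53 KO. Its log2 change was -0.72 ± 0.07 against parental (edgeR adjusted p = 4.87e-05) and -0.72 ± 0.07 against Ctrl (adjusted p = 1.90e-05). NCAPG2 of condensin II, BMI1 of PRC1, SMAD3 of TGF-beta signalling, the TNIK relative MINK1 and the BAF subunit SMARCC2 fell by 0.29 to 0.50 against parental and by 0.25 to 0.51 against Ctrl cells, with edgeR adjusted p of at most 0.0494. In each of these 6 genes, PARD3 included, p53 KO libraries were below all controls. Of all 71 partners tested elsewhere, 7 lay below all controls, where 10.1% of all tested genes did. This lack of overlap is therefore no result about these partners. TBL1X, the X-linked paralogue of TBL1XR1, had at most 28 counts in a library. It lay at 0 to 0.0769 CPM in parental, 0.211 to 0.343 CPM in Ctrl and 0.695 to 1.06 CPM in p53 KO libraries. The filter admitted it only through its p53 KO libraries, so its call as higher followed from the filter and no test is given for it. The number of partners changed against both controls was 11, TBL1X included. It was 17 without Ctrl replicate 1, 19 without both libraries low in long genes, and 7 without parental replicate 2, p53 KO replicate 1 or p53 KO replicate 3.

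**Figure D4:**
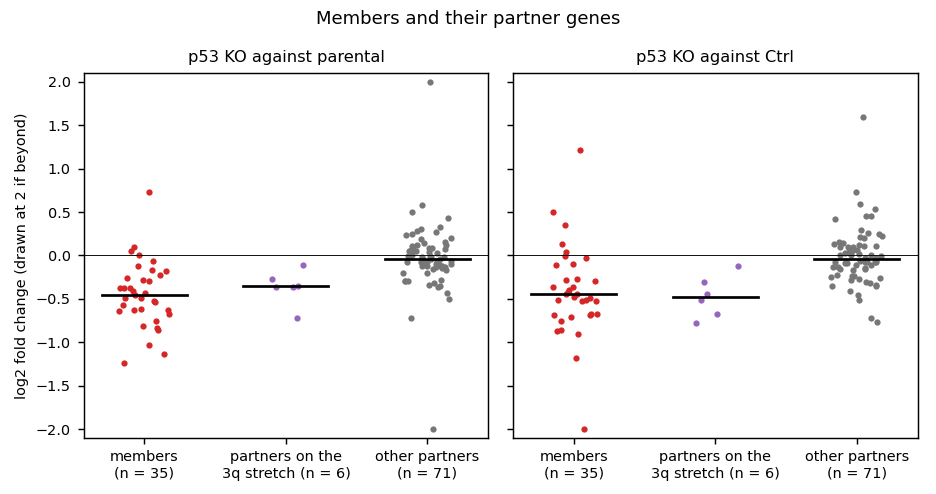
Log2 fold changes of p53 KO against parental and against Ctrl cells for the 35 tested members, the 6 partners on chromosome 3 from 100 Mb on and the 71 other tested partners, 1 point per gene (values beyond 2 are drawn at 2) and a line at the median. The other partners centre near 0, at -0.04 in both comparisons, and the members at -0.46 and -0.44.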

How the data were processed

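RNA was measured in A431 parental, A431 Ctrl and A431 p53 KO cells, in 3 libraries per group, and groups were taken from the sample labels. According to the study's methods and the submitters' processing notes, strand-specific poly(A) libraries were sequenced as paired-end reads, checked with FastQC, aligned with STAR 2.5.1b to GRCh38 and counted per gene with featureCounts on Ensembl release 85. The counts deposited by the authors are whole numbers without normalization, and totals of 19783778 to 29840452 per library set the counting error. The strand setting of the counting is not given in the sources used here.

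In R 4.3.3, edgeR 4.0.16 was fitted to all 9 libraries with a mean per group, after filterByExpr at a minimum count of 10 and TMM scaling. Groups were compared with the quasi-likelihood test and Benjamini-Hochberg adjustment over 14513 genes, and a gene was called at an adjusted p of at most 0.05. The code was tested on simulated data. The 38 members, the role groups, the partner genes and the lists were chosen with earlier results of these data known. Named were all members, the other tested genes of the window, the nearest tested genes outside its edges, the partners that both controls called one way and pairs of members with starts within 1000 bases. The second gene outside each edge (SCHIP1 and FXR1) was added after its values were seen. Positions and exon lengths are from GENCODE release 44 (GRCh38), which held 14397 of the tested genes, and promoter sequences from RefSeq (GRCh38.p14), which held 34 of 38 members. Standard errors follow from the F statistic. A pseudocount of 0.5 CPM was used in the correlation of members over libraries. Alternatives were DESeq2 1.42.0, its size factors, TMM without chromosome 3, a fit limited to the groups compared, a block for the replicate number, a filter of 1 count in total or of 10 counts per library, and each library left out in turn. After the data were seen, leaving out both libraries low in long genes and offsets for exon length were added. The RNA of the targeted gene is not reported here. No library was left out of the main results. Figures were drawn with matplotlib 3.10.9.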

Additional observations from a re-analysis of the deposited data

Results flagged for a closer look

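In 5 of 35 tested members, every p53 KO library lay below and every Ctrl library above all parental libraries, an arrangement that 548 of 14513 tested genes (3.78%) also had. These were PDCD10, with a log2 change of -0.26 in p53 KO against parental cells, SEC62 with -0.49, PLD1 with -0.64, ACTL6A with -0.37 and NDUFB5 with -0.18. The members were chosen as lower in p53 KO cells, which is part of this arrangement, so its share among them is no result about the members. The difference between the effect in p53 KO and that in Ctrl cells was not tested.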

How the results depend on the processing

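Among the results recomputed no called direction reversed, and the medians of the members stayed below 0 in both comparisons of p53 KO cells, while that in Ctrl against parental cells ran from -0.05 to 0.12. With single libraries left out, members lower against parental cells numbered 11 to 27 and members changed in Ctrl against parental cells 5 to 12. Partners changed against both controls then numbered 7 to 17, neighbouring genes lower against parental cells 53 to 119, and those changed in Ctrl against parental cells 25 to 64. Members with p53 KO below all controls numbered 16 to 26, and the median against Ctrl cells ran from -0.53 to -0.36. Leaving out both libraries low in long genes was chosen after seeing the data. It gave 17 members changed in Ctrl against parental cells, 19 partners and 28 members below all controls. The cause of these moves was not tested, and no matching share over all tested genes is given. Libraries with the same replicate number correlated in their deviations at -0.74 to 0.24, so the numbers were not taken to pair libraries. With the replicate number as a block, 16 members were lower against parental cells, 17 against Ctrl and 5 changed in Ctrl against parental, and 27 neighbouring genes changed in Ctrl against parental cells. The other alternatives left each count within 1.5 times its main value. Of 665 recomputed values of 37 single-member results, 585 stayed on the same side of the threshold, 74 lost the call, 6 gained it and 0 changed sign. With 3 libraries per group and members near 0 counts, LRRC34, WDR49, SERPINI1 and NAALADL2 could not be compared between p53 KO and parental cells at this depth.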
